A study of Macaca mulatta with 15 samples.

Results

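The genes described here are the guanylate-binding proteins GBP1 to GBP5 and the transcription factor IRF1, followed in blood T cells of 2 healthy rhesus macaques. Members were taken by gene symbol from the count table, and 2 of the 6 listed symbols matched a row of its 34884 genes. These are GBP3 (ENSMMUG00000000662) and IRF1 (ENSMMUG00000008100), which both passed the filter on low counts. GBP1, GBP2, GBP4 and GBP5 matched no row by symbol and were not analysed here. The symbols were selected on the fall of interferon-gamma genes after treatment over both animals, measured in these same libraries. The change over treatment in GBP3 and IRF1 is therefore given as values without a test. Differences in that change between animals or subsets were tested, with p-values that are not independent of this choice.

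The animals received 2-hydroxypropyl-beta-cyclodextrin (Kleptose HBP), a cyclic sugar compound that takes up cholesterol. It was injected under the skin at 1 ml/kg/day as a 15% (w/w) solution, for up to 120 days. The 7 libraries after treatment and the 8 before it come from the animals labelled RhM22 and RhDBCb, and the animals sampled before treatment are the only control. No animal followed over the same time without treatment is among the samples, and the labels give neither the age of the animals nor the day of each draw. Each library holds CD8 memory, CD8 naive, CD4 memory or CD4 naive T cells, and how these were separated is not stated. After treatment, CD8 naive cells were analysed for RhM22 only. There were 4 draws for the 15 libraries, so libraries of a draw share an animal and a day, and p-values measure the spread among these libraries.

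Interferon-gamma, made by T cells and natural killer cells, signals through the receptor chains IFNGR1 and IFNGR2 and the kinases JAK1 and JAK2 to the nucleus. IRF1 is induced by this signal and in turn switches on further interferon-responsive genes. The guanylate-binding proteins are among these targets: they are large GTPases, known from human and mouse cells, that gather on microbes and on the vacuoles that hold them. In T cells IRF1 also answers interleukin-12, interleukin-2 family cytokines and NF-kB, and in mice it is needed for normal maturation of CD8 T cells.

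Totals ranged from 44414963 to 71787211 counts per library, with 13525 to 15445 genes detected. Summed markers of T cells lay at 1359 to 2334 CPM (counts scaled to the library total) and lineage markers followed the CD4 and CD8 labels. Neutrophil markers summed to at most 1.82 CPM, and ELANE, a granule protease of neutrophil precursors, and SLC4A1, a membrane protein of red cells, were at 0 in all 15 libraries. Monocyte and dendritic cell markers summed to 12.2 to 64.1 CPM, B cell markers to 17.9 to 113 CPM and platelet markers to 4.00 to 114 CPM. In bulk libraries fewer expressing cells and less RNA per cell cannot be told apart. Replicate libraries of one time and subset are different animals.

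IRF1 was an abundant transcript in all 4 subsets and was lowest in CD4 memory cells in 4 of 4 draws. In CD8 memory cells of RhM22 it lay at 1298 CPM after and 1810 CPM before treatment, and in those of RhDBCb at 1195 CPM after and 1016 CPM before. CD8 naive cells held 1211 CPM after and 2083 CPM before treatment in RhM22, and 1117 CPM before treatment in RhDBCb. CD4 memory cells held 714 CPM after and 996 CPM before treatment in RhM22, and 500.1 CPM after and 583 CPM before in RhDBCb. CD4 naive cells held 1246 CPM after and 1669 CPM before treatment in RhM22, and 758 CPM after and 976 CPM before in RhDBCb. The CD4 memory library was the lowest of its draw each time, and the highest was a CD8 library in each draw. Between subsets the ranges over draws overlapped, except that every CD8 library lay above every CD4 memory library.

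GBP3 varied far more than IRF1 and had another order, with CD8 memory cells highest and CD4 naive cells lowest in 4 of 4 draws. In CD8 memory cells of RhM22 it lay at 435 CPM after and 1732 CPM before treatment, and in those of RhDBCb at 544 CPM after and 277 CPM before. CD8 naive cells held 164 CPM after and 462 CPM before treatment in RhM22, and 224 CPM before treatment in RhDBCb. CD4 memory cells held 169 CPM after and 407 CPM before treatment in RhM22, and 161 CPM after and 146 CPM before in RhDBCb. CD4 naive cells held 101 CPM after and 271 CPM before treatment in RhM22, and 128 CPM after and 111 CPM before in RhDBCb. The CD8 memory library of RhM22 before treatment was the highest of all, with the next at 544 CPM, and in each subset the library of RhM22 before treatment was the highest.

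**Figure D1:**
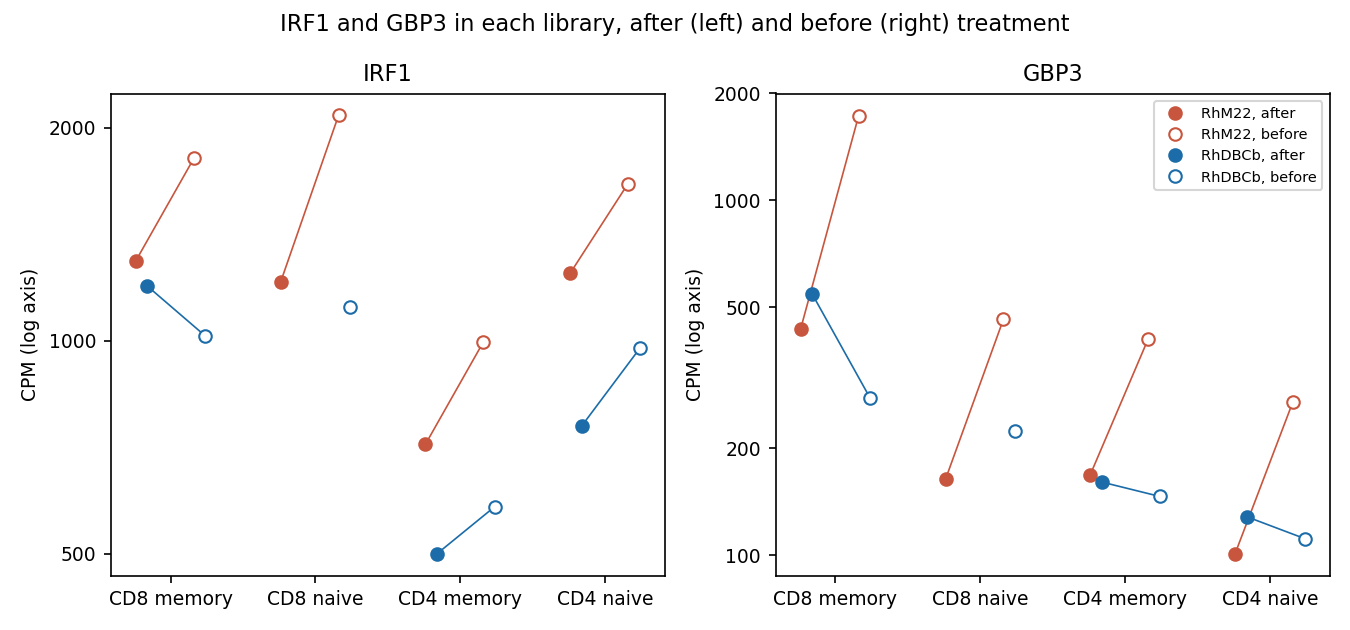
CPM on a log axis for IRF1 (left panel) and GBP3 (right panel) in each of the 15 libraries by T cell subset, with filled points after and open points before treatment and a line for each before-and-after pair. IRF1 is lowest in CD4 memory cells, at 500.1 to 996 CPM, and GBP3 is highest in CD8 memory cells, at 277 to 1732 CPM.

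Levels cannot be set against each other between these genes. The length implied by the ratio of deposited count to deposited FPKM (a value scaled by gene length and depth) was 15.3 times as long for the GBP3 row as for IRF1, longer than for 89.7% of 19976 genes. It was 12.7 times as long for GBP7, a neighbour in the same gene cluster, and 1.78 times for GBP6. In the RefSeq annotation of another assembly, used for gene order alone, GBP7, LOC114671702, GBP2, GBP1 and GBP3 lie in this order beside KYAT3. LOC114671702, GBP2 and GBP1 have no row by symbol in the count table, and whether the GBP3 row takes reads of these neighbours was not tested. Counts of GBP3, GBP6 and GBP7 are uncertain in this respect.

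In CD4 cells IRF1 was lower and GBP3 higher in the memory than in the naive library of each draw. In CD4 cells IRF1 averaged 698 ± 217 CPM in memory and 1162 ± 392 CPM in naive cells (SD, n = 4 each). Within a draw the memory level was 0.573 to 0.660 of the naive level. IRF1 fell by 0.72 on the log2 scale in CD4 memory relative to CD4 naive cells (SE 0.16, edgeR quasi-likelihood test, Benjamini-Hochberg adjusted p = 0.0212, lower in 4 of 4 draws). This comparison called 5.6% of all genes. The call was lost without any 1 of the 8 CD4 libraries, with adjusted p between 0.0627 and 0.107 and a fold change between -0.77 and -0.66. GBP3 averaged 221 ± 125 CPM in CD4 memory and 153 ± 79.4 CPM in CD4 naive cells (SD, n = 4 each). It lay 1.25 to 1.67 times as high in memory cells within each draw, which did not pass the test (log2 fold change 0.49, SE 0.41, edgeR adjusted p = 0.578).

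In CD8 cells IRF1 averaged 1330 ± 341 CPM in memory (SD, n = 4) and 1470 ± 533 CPM in naive cells (SD, n = 3). It was higher in memory cells in 1 of 3 draws and lower in 2, at ratios of 0.869 to 1.07 and a mean within-draw log2 difference of -0.08. The fitted log2 fold change was 0.11 (SE 0.18, edgeR adjusted p = 0.78). The fit holds the difference between the animals equal at both times to place the CD8 naive library after treatment, which has no partner in RhDBCb. For comparisons with CD8 naive cells a fit with the draw in place of the animal, chosen after seeing the data, is therefore given beside it, and for IRF1 here it gave 0.00 (SE 0.13, adjusted p = 0.995). GBP3 averaged 747 ± 666 CPM in CD8 memory (SD, n = 4) and 283 ± 158 CPM in CD8 naive cells (SD, n = 3). It was higher in memory cells in 3 of 3 draws, by 1.24 to 3.75 times and a mean within-draw log2 difference of 1.21. The fitted log2 fold change of 1.73 lay above that mean and missed the threshold (SE 0.50, edgeR adjusted p = 0.0529). With the draw in the fit it was 1.27 (SE 0.23, adjusted p = 0.00198), past the threshold. DESeq2 gave this difference an adjusted p of 0.00113. Without the CD8 memory library of RhM22 before treatment the fold change was 0.97 (adjusted p = 0.208). This comparison called 8.4% of all genes.

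CD8 memory cells held more of both genes than CD4 memory cells. IRF1 was 1.74 to 2.39 times as high within a draw, a log2 difference of 0.96 (SE 0.16, edgeR adjusted p = 0.00539, higher in 4 of 4 draws). This difference was called without each of the 15 libraries in turn, at 0.80 to 1.10. GBP3 was 1.89 to 4.26 times as high within a draw, a log2 difference of 1.68 (SE 0.42, edgeR adjusted p = 0.0460, higher in 4 of 4 draws). The comparison called 4.07% of all genes. The call of GBP3 stood close to the threshold and held in 4 of 15 fits that left out 1 library. It was kept without the CD8 memory library of RhDBCb before treatment, that of RhM22 after treatment, or the CD4 naive library of either animal after treatment. Without the CD8 memory library of RhM22 before treatment the fold change was 0.99 (adjusted p = 0.221). Markers of natural killer cells, 7 genes in all, summed to 39.0 to 94.3 CPM in CD8 memory and 6.89 to 9.02 CPM in CD4 memory libraries, and their part in these differences was not tested.

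Between naive cells neither gene passed the test. The log2 fold change of IRF1 in CD8 relative to CD4 naive cells was 0.12 (SE 0.18, edgeR adjusted p = 0.983), with ratios of 0.972 to 1.25 within a draw. That of GBP3 was 0.44 (SE 0.46, edgeR adjusted p = 0.934) although it was higher in CD8 naive cells in 3 of 3 draws, by 1.62 to 2.01 times and a mean log2 difference of 0.82. With the draw in the fit it was 0.82 (SE 0.22, adjusted p = 0.0619). The comparison called 1.67% of all genes. The fitted difference of the memory step between the lineages, as CD8 minus CD4, was 0.83 for IRF1 (SE 0.24, edgeR adjusted p = 0.607) and 1.25 for GBP3 (SE 0.63, adjusted p = 1). Within the 3 draws that hold all subsets it averaged 0.68 for IRF1, with a range of 0.54 to 0.90, and 0.63 for GBP3, with a range of -0.09 to 1.32. With the draw in the fit the values were 0.73 (SE 0.18, adjusted p = 0.191) and 0.76 (SE 0.30, adjusted p = 0.537). Neither gene passed in either fit, in a comparison that called 0.0203% of genes. IRF1's lower level in memory cells was therefore called in CD4 cells without the difference from CD8 cells being called.

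The relatives GBP6 (ENSMMUG00000020157) and GBP7 (ENSMMUG00000000663) were not called in any of these comparisons. GBP7 lay between 12.3 and 50.0 CPM and GBP6 at 0.596 to 3.44 CPM over the 15 libraries. In CD8 memory relative to CD4 memory cells their log2 fold changes were 0.12 (GBP7, SE 0.27, edgeR adjusted p = 0.91) and 0.19 (GBP6, SE 0.44, adjusted p = 0.911). The difference between its fold change and that of GBP3 was not tested.

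**Figure D2:**
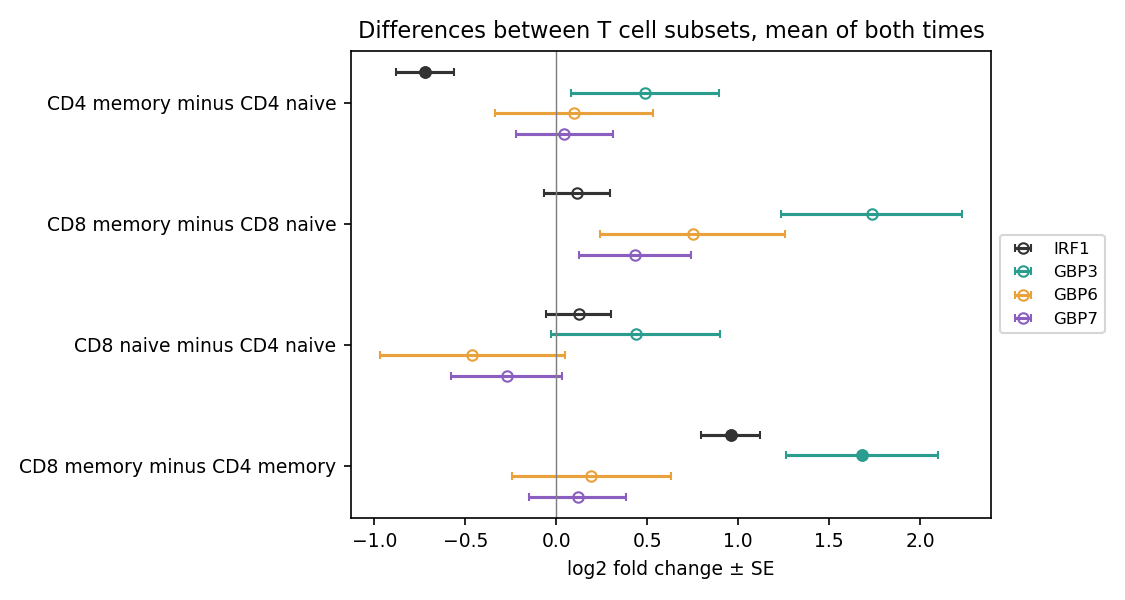
Log2 fold changes with their SE for IRF1, GBP3, GBP6 and GBP7 in 4 contrasts between T cell subsets, each averaged over both times, with filled points for an adjusted p under 0.05. IRF1 is called lower in CD4 memory than CD4 naive cells (-0.72) and higher in CD8 memory than CD4 memory cells (0.96), and GBP3 is called in the comparison of memory cells alone (1.68).

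Other genes of the pathway were read from 6 lists, 97 tested genes in all, with some on more than 1 list. They hold the interferon-gamma signal, its other targets, the IRF family, inputs to IRF1 outside interferon, inflammasome genes that work beside guanylate-binding proteins, and type I interferon-stimulated genes. The list of inputs to IRF1 also holds TBX21 and EOMES, transcription factors of effector T cells, so a gene called on it need not be an input. In CD8 memory relative to CD4 memory cells 10 of the 97 were higher and 1 was lower, which is 11.3%, against 386 higher and 217 lower among all genes (4.07%). Their median log2 fold change was 0.18 against 0.03 over all genes. IRF8, a relative of IRF1 that acts in effector T cells of mice, was higher by 2.94 (SE 0.35, edgeR adjusted p = 0.000662) and was called in 22 of 22 alternative fits. ICAM1, an adhesion molecule induced by interferon-gamma, was higher by 1.64 (SE 0.28, adjusted p = 0.00569). IFNG, the cytokine itself, was higher by 2.21 (SE 0.53, adjusted p = 0.0375) at a level of 0.224 to 5.18 CPM over all libraries, and 13 of 22 alternatives called it. IFNGR2, the signalling chain of its receptor, was lower by 1.29 in CD8 memory cells (log2 fold change -1.29, SE 0.23, adjusted p = 0.00703). CD74, the invariant chain, was higher by 0.87 (SE 0.22, adjusted p = 0.0497), a call found in 6 of 22 alternatives.

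Most of the fixed panel of signalling genes did not pass the test between the memory subsets. The log2 fold change of JAK2 was 0.17 (SE 0.23, edgeR adjusted p = 0.802) and that of IFNGR1 0.30 (SE 0.17, 0.438). JAK1 lay at 0.50 (SE 0.17, 0.148) and NLRC5, the activator of class I antigen presentation, at 0.75 (SE 0.23, 0.101). IRF2, an antagonist of IRF1 at shared sites, lay at 0.27 (SE 0.18, 0.546), IRF9 of the type I interferon complex at 0.17 (SE 0.20, 0.787) and the feedback inhibitor SOCS1 at -0.25 (SE 0.26, 0.729). CIITA, the activator of class II genes and a target of IRF1, lay at 0.56 (SE 0.59, 0.734) with at most 2.36 CPM in any library. On the list of inputs to IRF1 outside interferon, 6 of 17 genes were higher in CD8 memory cells, beside the 4.07% called over all genes. They were IL12RB2, STAT4, IL18RAP, IL12RB1, TBX21 and EOMES, and whether they act on IRF1 in these cells was not tested. EOMES, a transcription factor of cytotoxic cells, was higher by 2.96 (SE 0.32, adjusted p = 0.000315) and IL18RAP, a chain of the interleukin-18 receptor, by 3.98 (SE 0.42, adjusted p = 0.000289).

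Every pathway gene called between memory and naive cells was higher in memory cells. In CD8 memory relative to CD8 naive cells 22 of 97 genes were higher and 0 lower (22.7%, median log2 fold change 0.64 against 0.05 over all genes), where all genes had 786 higher and 459 lower (8.4%), and in CD4 memory relative to CD4 naive cells 14 were higher and 0 lower (14.4%, median 0.30 against -0.02), where all genes had 577 higher and 253 lower (5.6%). IRF1, which is not among the 97, was thus called lower in CD4 memory cells where none of these genes was. The genes called higher there were 5 of 17 on the list of inputs to IRF1, 4 of 23 type I interferon-stimulated genes, 3 of 7 inflammasome genes and 2 of 30 other targets. Of the interferon-gamma signal 0 of 15 genes were called (median log2 fold change -0.04 against -0.02 over all genes), and of the IRF family 0 of 8. APOL2, an interferon-inducible apolipoprotein L, was higher by 2.24 in CD8 memory (SE 0.33, edgeR adjusted p = 0.00191) and by 1.19 in CD4 memory cells (SE 0.26, adjusted p = 0.0210). AIM2, a cytosolic DNA sensor that acts beside guanylate-binding proteins in infected mouse cells, was higher by 1.59 in CD8 memory cells (SE 0.23, adjusted p = 0.00168). IL18R1, the other interleukin-18 receptor chain, was higher by 3.36 in CD8 memory (SE 0.41, adjusted p = 0.000765) and by 3.61 in CD4 memory cells (SE 0.34, adjusted p = 0.000227). SAMHD1, a restriction factor, was higher by 0.96 in CD4 memory cells (SE 0.18, adjusted p = 0.00958). IRF8 was called higher in CD8 memory cells (log2 fold change 1.50, SE 0.39, adjusted p = 0.0353), a call kept in 14 of 21 alternatives. In CD4 memory cells IRF8 lay at -0.75 on the log2 scale (SE 0.33, adjusted p = 0.232). In CD8 relative to CD4 naive cells 4 of the 97 were higher and 0 lower (4.12%, against 1.67% over all genes), among them EOMES by 3.58 (SE 0.36, adjusted p = 0.000235). All 4 (IL12RB2, IL18RAP, TBX21 and EOMES) are on the list of inputs to IRF1 outside interferon, and no gene of the other lists was called.

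Over treatment, GBP3 was lower in 4 of 4 pairs of RhM22 and higher in 3 of 3 pairs of RhDBCb. In RhM22 the change after minus before was -1.99 on the log2 CPM scale in CD8 memory, -1.50 in CD8 naive, -1.27 in CD4 memory and -1.42 in CD4 naive cells, a mean of -1.55. In RhDBCb it was 0.97 in CD8 memory, 0.13 in CD4 memory and 0.20 in CD4 naive cells, a mean of 0.44. The GBP3 values of RhM22 after treatment (101 to 435 CPM) and before it (271 to 1732 CPM) overlapped across subsets. Over both animals the fitted log2 fold change was -0.73 (SE 0.29), given as a description, and without the before libraries of RhDBCb, which leaves only the pairs of RhM22, it was -1.55.

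For IRF1, 6 of 7 pairs were lower after treatment. In RhM22 its change was -0.48 in CD8 memory, -0.78 in CD8 naive, -0.48 in CD4 memory and -0.42 in CD4 naive cells, a mean of -0.54. In RhDBCb it was 0.23 in CD8 memory, -0.22 in CD4 memory and -0.36 in CD4 naive cells, a mean of -0.12. The fitted change over both animals was -0.35 (SE 0.11), again as a description, and -0.54 without the before libraries of RhDBCb. Of the 14814 genes tested, 1.88% were lower in 7 of 7 pairs, and neither member was among them. The share of all genes lower in 6 of 7 pairs was not counted, nor was the share with the pattern of GBP3. How unusual these counts of pairs are is therefore not known. The comparison after against before called 0.00675% of genes, from which nothing is read about the members. GBP7 was lower in 5 of 7 pairs (fitted -0.23, SE 0.18) and GBP6 in 6 of 7 (fitted -0.23, SE 0.28).

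The change of GBP3 differed between the animals. The term for RhM22 minus RhDBCb was -1.84 (SE 0.30, edgeR adjusted p = 0.00690). This contrast was not itself used to choose the members. It is built from the same before-and-after libraries as the fall that chose them, so its p-value is not independent of that choice. It called 4.58% of all genes. GBP3 was called in 20 of 20 alternative fits, at -1.98 to -1.34 and an adjusted p of at most 0.0482. For IRF1 the term was -0.42 (SE 0.18, edgeR adjusted p = 0.19), for GBP7 -0.81 (SE 0.29, 0.13) and for GBP6 -0.64 (SE 0.54, 0.563), and none of the 3 passed. The term compares 4 draws, 1 per animal and time, so the animal, the day and the treatment cannot be told apart from one another for a single draw. The p-values of the term, in the main fit and the alternatives, take libraries of a draw as replicates. They do not measure the spread between animals or between draws.

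The animals differed more before treatment than after it in each of the 3 subsets with both times. Before treatment GBP3 was 2.07 to 6.26 times as high in RhM22 as in RhDBCb over the 4 subsets, and after treatment the ratio was 0.786 to 1.05 over 3 subsets. For IRF1 the ratio was 1.71 to 1.86 before and 1.09 to 1.64 after treatment. In RhM22 summed platelet markers lay at 33.2 to 114 CPM after and 24.6 to 68.4 CPM before treatment, and in RhDBCb at 15.2 to 38.5 CPM after and 4.00 to 10.2 CPM before. Summed monocyte and dendritic cell markers lay at 35.8 to 64.1 CPM after and 34.7 to 58.5 CPM before in RhM22, and at 12.2 to 40.1 CPM after and 14.1 to 21.1 CPM before in RhDBCb. The part of these cells in the change of GBP3 was not tested.

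Of the 97 pathway genes 18 had a lower and 1 a higher change in RhM22 than in RhDBCb, which is 19.6% against 4.58% of all genes. Their median term was -0.40 against -0.01 over all genes, a description and not a test of the lists. By list, 3 of 15 genes of the interferon-gamma signal, 4 of 30 of its other targets and 2 of 8 of the IRF family had the lower change. So did 6 of 17 genes on the list of inputs to IRF1, 1 of 7 inflammasome genes and 3 of 23 type I interferon-stimulated genes. IRF8 had a term of -1.60 (SE 0.33, edgeR adjusted p = 0.0175), IRF7, the inducer of type I interferon, -2.28 (SE 0.42, adjusted p = 0.0118) and NLRC5 -0.92 (SE 0.18, adjusted p = 0.0136). APOL6, another interferon-inducible apolipoprotein L, had -2.16 (SE 0.27, adjusted p = 0.00146), and MX1, an antiviral GTPase, -2.89 (SE 0.27, adjusted p = 0.000289). STAT3 and NFKB1, which carry cytokine and NF-kB signals, had -1.64 (SE 0.19, adjusted p = 0.00109) and -1.60 (SE 0.20, adjusted p = 0.00156). APOL6, MX1, STAT3 and NFKB1 were called in 20 of 20 alternatives. TAPBP, the peptide loading factor tapasin, was the 1 gene with a higher change in RhM22, at 0.98 (SE 0.25, adjusted p = 0.0417), and 6 of 20 alternatives called it.

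The receptor chains and kinases of interferon-gamma were not called in this term. IFNGR1 had -0.48 (SE 0.16, edgeR adjusted p = 0.0976), IFNGR2 -0.07 (SE 0.30, 0.948), JAK1 -0.27 (SE 0.19, 0.477) and JAK2 -0.34 (SE 0.29, 0.568). IFNG had 1.21 (SE 0.63, adjusted p = 0.308), SOCS1 -0.10 (SE 0.39, 0.944) and IRF2 0.03 (SE 0.23, 0.985). IRF9 had -0.67 (SE 0.21, adjusted p = 0.0867) and CIITA 1.34 (SE 0.83, 0.399). Over both animals IFIT2, an interferon-induced antiviral gene, was the 1 gene called after against before among all 14814 tested. Its log2 fold change was -1.36 (SE 0.18), and 9 of 22 alternatives called it. The members were chosen on this contrast and the lists with earlier results of these data known, so the value is a description.

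**Figure D3:**
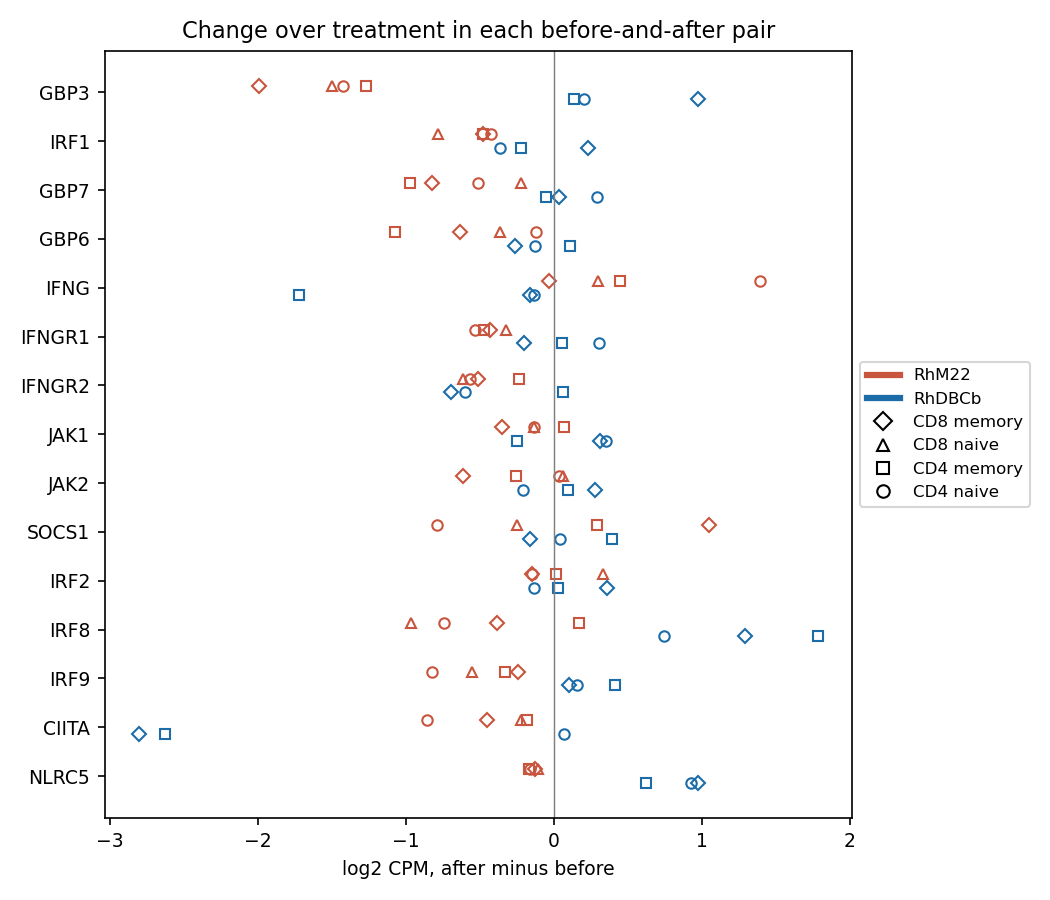
Change in log2 CPM after minus before treatment for GBP3, IRF1, GBP7, GBP6 and a panel of signalling genes in each of the 7 before-and-after pairs, by animal (colour) and subset (shape). For GBP3 the 4 pairs of RhM22 lie between -1.99 and -1.27 and the 3 of RhDBCb between 0.13 and 0.97.

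Whether the change depended on the subset was tested across both animals. These comparisons are built from the same before-and-after libraries as the fall that chose the members, so their p-values are not independent of that choice. In CD4 memory minus CD4 naive cells the changes differed by 0.04 for IRF1 (log2, SE 0.32) and by -0.04 for GBP3 (SE 0.81). In CD8 memory minus CD4 memory cells they differed by 0.25 for IRF1 (SE 0.32) and by -0.11 for GBP3 (SE 0.82). Each had an edgeR adjusted p of 1, and both comparisons called 0% of all genes, with 195 and 137 genes at an unadjusted p under 0.05. By DESeq2 the first of these comparisons called 1 gene and the second 0, and limma on log2 FPKM called 0 in both. The SE of GBP3 allows differences of more than 1 log2 unit in either direction. For GBP3 the CD8 memory minus CD4 memory value averages opposite directions in the 2 animals. In RhDBCb the change was 0.97 in CD8 memory and 0.13 in CD4 memory cells. In RhM22 it was -1.99 in CD8 memory and -1.27 in CD4 memory cells.

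Across the 15 libraries GBP3 and IRF1 correlated at r = 0.60 (Pearson, log2 CPM), and at 0.78 after centring on subset and animal. These libraries share 2 animals and 4 draws, so the values are descriptions. GBP3 with GBP7 gave 0.53 and, after centring, 0.54. Among 8289 genes with a symbol and a mean of at least 5 CPM, those most like GBP3 were GOLGA4 (0.92), RNFT1 (0.91) and RBM38 (0.90). Those most like IRF1 were FNIP2 (0.88), ICAM1 (0.86) and STK26 (0.86). ICAM1 was also the gene most like the mean of GBP3 and IRF1 (0.94), ahead of SYTL3 (0.88), RBBP6, REL and IRF8 (0.86 each). After centring, PITPNB (0.97), ARNTL (0.95) and SARAF (0.95) were most like GBP3, and NBN (0.92), RO60 (0.90) and ICAM1 (0.89) most like IRF1.

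**Figure D4:**
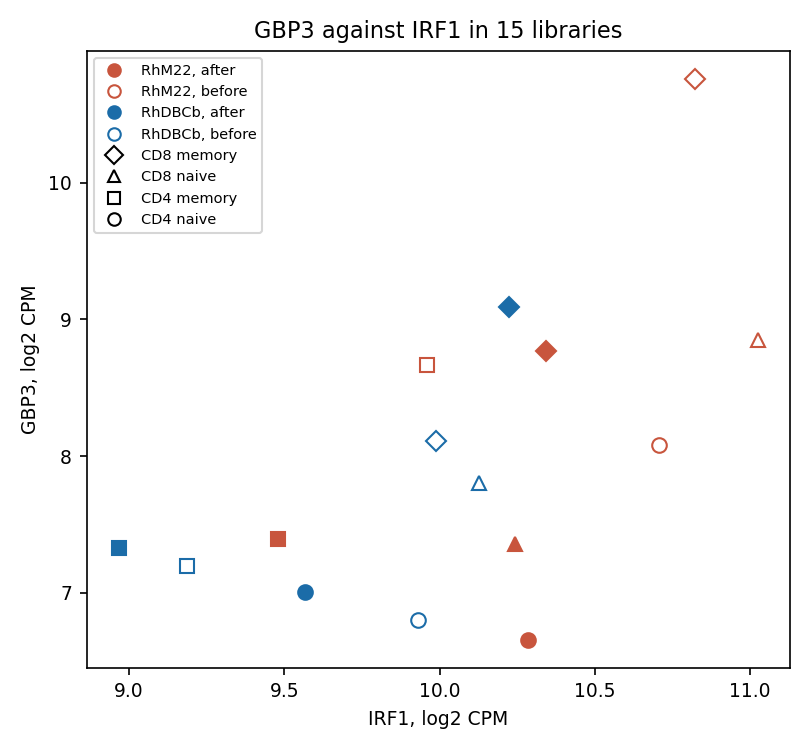
GBP3 against IRF1 in log2 CPM over the 15 libraries, by animal (colour), subset (shape) and time (filled after, open before treatment). The CD8 memory library of RhM22 before treatment, at 1732 CPM of GBP3, is the highest point, and r over all points is 0.60.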

How the data were processed

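The authors deposited an expected count per gene and library and an FPKM value. The submitters' processing notes name cutadapt 1.18 besides STAR 2.7.6a, RSEM 1.3.3 and the builds Mmul_10 and rheMac10. Deposited FPKM values were used in alternatives and for implied lengths alone, since their scaling is not given in the sources used here. Per the labels, polyadenylated RNA was made into SMART-Seq v4 libraries, which do not mark strand. PCR copies cannot be told from molecules.

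Expected counts, of which 8.38% were not whole, were rounded, a shift of up to 26.1 counts in a library's total. With a minimum count of 10, filterByExpr kept 14814 genes, using the 8 subset-by-time groups. CPM used TMM-scaled totals. edgeR 4.0.16 in R 4.3.3 gave quasi-likelihood tests, with Benjamini-Hochberg adjustment over all genes and calls at an adjusted p under 0.05. All 15 libraries entered each fit. Subset contrasts, averaged over both times, and differences of change came from 8 subset-by-time groups plus animal. Treatment came from subset, animal and time, and the animal-by-time term was RhM22 minus RhDBCb. SE is the absolute log2 fold change over the square root of F. DESeq2 1.42.0, RLE scaling, no filter, no animal term, limma 3.58.1 on log2(FPKM + 0.1) and log2(FPKM + 1), leaving out each library and leaving out the before libraries of RhDBCb were alternatives. A fit of subset and draw was added after seeing the data and is not counted among the alternatives. The CD4 memory minus CD4 naive and CD8 naive minus CD4 naive contrasts were checked on simulated counts without animal or draw effects. This cannot show how the fits behave when libraries share a draw. The animal-by-time and treatment terms were not checked in this way.

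Libraries are paired by the animal named in their labels. Deviations from the group means correlated at 0.195 to 0.501 between groups. At most 9.04% of counts were identical in any pair of libraries. The members and lists were chosen with earlier results of these data known. Named pathway genes were a fixed panel and, per list, contrast and direction, up to 2 called genes with the largest fold change, of which some are left out of the text. Like genes were the top 3 by Pearson r, or the top 5 for the mean of both members. Sequences and promoters were not analysed here. A gene of the panel is not reported here, and all fits and counts keep it.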

Additional observations from a re-analysis of the deposited data

Results flagged for a closer look

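The change of GBP3 over treatment differed between the animals, by -1.84 (log2) as RhM22 minus RhDBCb (SE 0.30, edgeR adjusted p = 0.00690 for the animal-by-time term). GBP3 was lower after treatment in 4 of 4 pairs of RhM22 and in 0 of 3 of RhDBCb. The term compares 4 draws, and its p-value takes libraries of a draw as replicates. The term is built from the same libraries as the fall that chose the members.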

How the results depend on the processing

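The GBP3 difference between animals was called in 20 of 20 alternatives. Each of them takes libraries of a draw as replicates, so this count does not measure the spread between animals or draws. IRF1 in CD8 memory against CD4 memory cells was called in 21 of 22 alternatives. Without the replicate block, which pairs libraries by animal, that IRF1 value was 0.94 (adjusted p = 0.29), GBP3 in the same contrast 1.72 (0.235) and IRF1 in CD4 memory against CD4 naive cells -0.73 (0.369), all 3 no longer called. GBP3 in CD8 memory against CD4 memory cells was also lost with limma on log2(FPKM + 0.1), at 1.46 (0.152), and log2(FPKM + 1), at 1.13 (0.191), and ranged over 0.99 to 2.05 without 1 library each. IRF1 in CD4 memory against CD4 naive cells was lost without the 4 before libraries of RhDBCb, at -0.71 (0.0974), and ranged over -0.77 to -0.66 without 1 library each. GBP3 in CD8 memory against CD8 naive cells became a call with DESeq2 (1.74, 0.00113), without the filter (1.74, 0.0293), without the 4 before libraries of RhDBCb (1.68, 0.00477), with the draw in place of the animal as replicate block (1.27, 0.00198; chosen after seeing the data) and in 4 of 14 fits without 1 library, over 0.97 to 2.04. The cause was not tested. The fit with the draw kept the other calls of both members and called 1708, 2448, 499, 1221 and 13 genes in the 5 comparisons of subsets, in the order in which their counts follow. Over the other alternatives, the count of all genes called ranged over 238 to 1648 in CD4 memory against CD4 naive (830 as reported), 427 to 2258 in CD8 memory against CD8 naive (1245), 102 to 560 in CD8 naive against CD4 naive (247), 179 to 1252 in CD8 memory against CD4 memory (603), 0 to 86 for the memory step (3), 99 to 1671 for animal by time (679) and 0 to 177 after against before (1). For animal by time it was 99 without the CD8 naive library of RhM22 before treatment and 117 without the CD4 naive library of RhDBCb after it. Animal by time could not be fitted without the before libraries of RhDBCb or the animal term, nor contrasts with CD8 naive cells without their 1 library after treatment.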
